A study of Mus musculus with 8 samples.

Results

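Toll-like receptors are membrane proteins of innate immune cells that bind conserved molecules of microbes and of damaged cells. A group of them sits at the cell surface and reads lipids and proteins of microbial walls, and the other group sits in endosomes and reads nucleic acids or, in the mouse, the protein profilin of protozoa. Ligand binding brings receptor chains together, and adaptors such as Myd88 and Ticam1 then carry the signal to NF-κB and interferon regulatory factors, which in macrophages drive the genes of cytokines and chemokines.

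The transcript levels of 10 Toll-like receptor genes were taken by gene symbol from an RNA-Seq table of 53247 genes in tumor-associated macrophages (TAMs). All 10 were found in the table. Of these, 4 encode surface receptors (Tlr1, Tlr2, Tlr4 and Tlr6) and 6 encode endosomal receptors (Tlr3, Tlr7, Tlr8, Tlr9, Tlr12 and Tlr13). All 10 passed the filter on low values that left 13850 genes for testing, and each had at least 340 reads in each library. The sort kept cells that carried CD45 with CD11b, MHCII and F4/80, and the tumors were s.c. implants of the mouse Lewis lung carcinoma line LLC, taken at 14 days. There were 4 libraries from WT and 4 from miR-21 null mice, all labelled as strain C57/BL6 and 10 weeks of age. The miR-21 null mice carry the Mir21atm1Yoli allele in all their cells, so that the macrophages and every other host cell of the tumor lack miR-21, while the implanted LLC cells were the same line in both groups. For miR-21 null replicate 1 the label carries both a first and a further number, which may or may not mean pooled mice, and it counts here as 1 sample.

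Values were deposited as CPM (counts per 1e+06 reads). The smallest steps between values showed what 1 read was worth, 0.0300 to 0.0495 CPM, and from this the depth was 20.2 to 33.4 in units of 1e+06 reads. The deleted gene gave no check of the labels, because Mir21a was listed at 0.0001 CPM, the lowest value of the table, in all 8 samples. Pearson's r of log2 values across genes was 0.988 to 0.995 between samples of the same genotype and 0.970 to 0.981 between genotypes, and no library stood apart from its group. The defining macrophage markers were abundant, with summed levels of 7393 to 8390 CPM in WT and 6584 to 7947 CPM in miR-21 null samples. Of these 8 markers Fcgr1 was called higher, where 2.89% of all tested genes were called higher by the rule given below. Adgre1, which encodes the F4/80 antigen of the sort, was not called. Its level was 542 to 583 CPM in WT samples and 399 to 466 CPM in miR-21 null samples. Csf1r, the receptor of macrophage colony-stimulating factor, was at 1108 to 1474 CPM in WT samples and 866 to 1044 CPM in miR-21 null samples, also not called. In such bulk samples, fewer cells of a type and less RNA per cell cannot be told apart. A gene was called changed at a limma adjusted p of 0.005 or less together with a fold change over 1.5, and a wider limit of an adjusted p of 0.05 without a fold limit was read beside it. Fold changes are miR-21 null over WT on the log2(CPM + 1) scale. By the first rule 986 genes were called, of which 400 were higher and 586 lower, and this split was 491 higher and 337 lower after quantile normalization and 520 and 350 after rescaling by the median of ratios. Over all tested genes the median log2 fold change was -0.10 and moved to -0.0030 with the median of ratios.

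The sequence of the deleted miRNA is shown because its seed decides which transcripts it can pair with. The mature strand, from RefSeq on build GRCm38.p6, lies at chr11:86584120-86584141 on the minus strand, with the seed (bases 2 to 8) in capitals.
mmu-miR-21a-5p: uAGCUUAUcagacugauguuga

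The letters ATAAGCTA, the full 8-base match to that seed with the A opposite base 1, were in the longest annotated 3′ UTR of 0 of the 10 receptor genes, against 2.31% of the 11480 tested genes for which a 3′ UTR is annotated. With matches of 7 bases included (ATAAGCT or TAAGCTA), 1 of the 10 held a site, against 13.0% of genes. With the 6-base core TAAGCT alone, 2 of the 10 did, against 27.5%. Both are shown with the core in capitals, on the strand of the transcript and from GENCODE vM21 transcripts. The Tlr4 core lies at bases 108 to 113 of a 3′ UTR of 1321 bases, and the Tlr13 core at bases 55 to 60 of 859 bases.
Tlr4: cacatggctgcTAAGCTatagcatggac
Tlr13: caaaataaatgTAAGCTgtttgactaaa

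A match of letters is a description and does not show binding. The 2 genes with a core differed in the length of the match and in what was measured. Tlr4, the gene with the 7-base match TAAGCTA, was higher in miR-21 null TAMs. Tlr13, with the 6-base core only, had a log2 fold change of 0.011.

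The other sequence that bears on the values is the stretch that Tlr1 and Tlr6 share letter for letter. These neighbours lie 18467 bases apart on the minus strand of chromosome 5. Among the 12 mouse Toll-like receptor genes examined (the 10, Tlr5 and Tlr11), no other pair shared any window of 50 bases, and the longest run shared by the other neighbouring pair, Tlr7 and Tlr8, was 13 bases. Of the 50-base windows of the longest Tlr1 transcript, 15.3% occurred in Tlr6, and 12.5% of those of Tlr6 occurred in Tlr1. Reads from these windows could be counted for either gene or dropped, and the counting rule is not given in the sources used here. The longest shared run, 229 bases of coding sequence, is at chr5:64925537-64925765 in Tlr1 and at chr5:64953828-64954056 in Tlr6 (GRCm38, both minus strand), and all letters printed are common to both genes.
Tlr1 and Tlr6: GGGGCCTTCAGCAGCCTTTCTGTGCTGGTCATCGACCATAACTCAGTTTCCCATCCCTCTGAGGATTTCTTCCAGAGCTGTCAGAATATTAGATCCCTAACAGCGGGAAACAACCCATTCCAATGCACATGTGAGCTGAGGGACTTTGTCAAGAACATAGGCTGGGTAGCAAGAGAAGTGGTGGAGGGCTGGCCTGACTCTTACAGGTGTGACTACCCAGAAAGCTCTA

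Of the 10 receptor genes, 3 were called by genotype, against 7.12% of all tested genes. Tlr4 and Tlr12 were higher in miR-21 null TAMs (2.89% of all genes were called higher) and Tlr1 was lower (4.23% called lower). At the wider limit 5 of the 10 passed, with Tlr3 higher and Tlr7 lower in addition, against 36.0% of all genes. The same 5 were those whose groups of 4 samples did not overlap, against 35.1% of all genes. Over the 10 receptors the log2 fold changes had a median of 0.0057, and 6 of the 10 were positive, against 33.2% of all genes. These 6 include Tlr6 (0.00024) and Tlr13 (0.011), whose signs changed under some alternatives. The median of all genes, -0.10, was itself below 0 and moved with the scaling. The changes went in both directions, with the largest absolute values for Tlr12 and Tlr1. Relative to the median of all genes, the log2 fold change was 0.99 for Tlr12, 0.76 for Tlr4, 0.49 for Tlr3, -0.26 for Tlr7 and -0.76 for Tlr1, in the same directions.

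**Figure D1:**
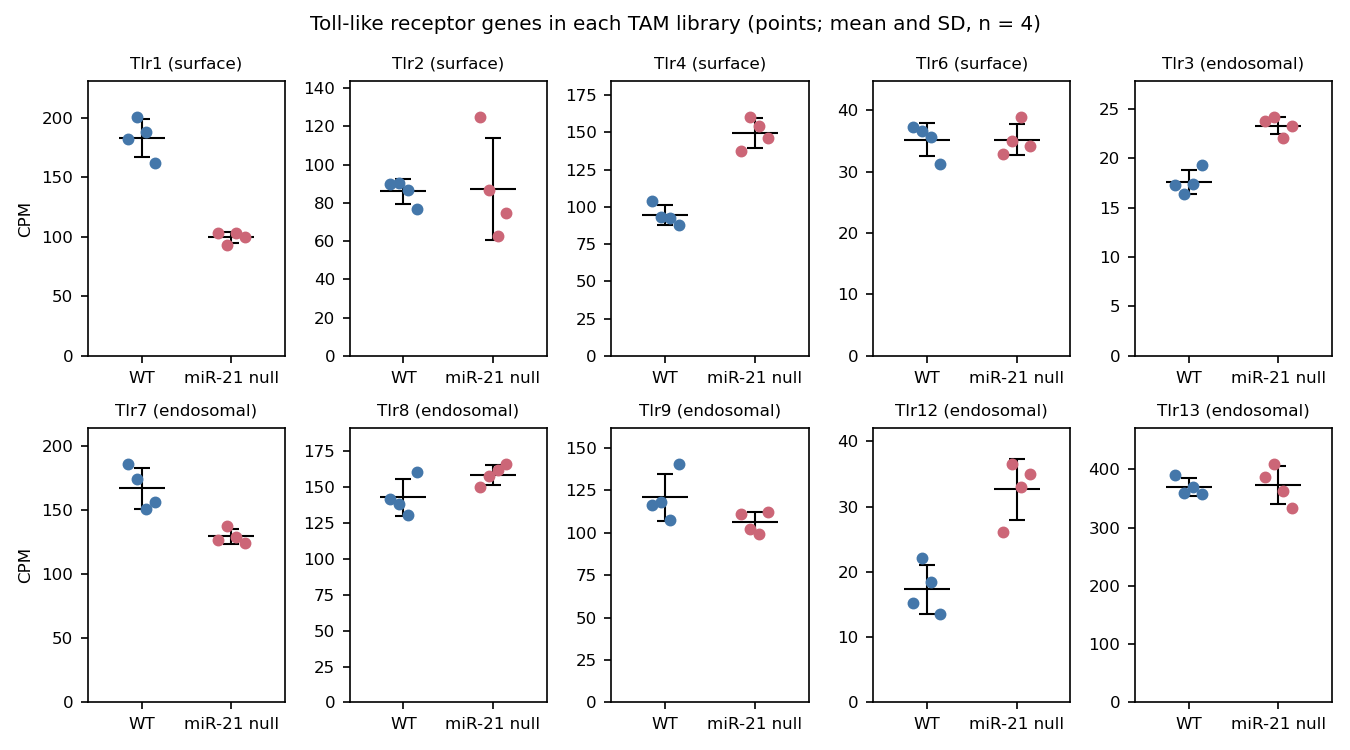
CPM of each Toll-like receptor gene in WT (blue) and miR-21 null (red) TAMs, 1 panel a gene with its own linear axis from 0; points are the 8 samples, and horizontal lines and bars are the mean and SD of 4 samples. The groups are apart for Tlr1, Tlr4, Tlr3, Tlr7 and Tlr12, and the widest spread relative to the mean is that of Tlr2 in miR-21 null samples (62.9 to 125 CPM, SD 30.6% of the mean).

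Among surface receptors, Tlr2 and its partners are given first. Tlr1 pairs with Tlr2 to bind triacylated lipopeptides of bacteria. The gene lies at chr5:64924679-64933563 (minus strand). Its level was 182, 200.3, 188 and 162 CPM in WT samples 1 to 4 and 104, 93.4, 103 and 99.4 CPM in miR-21 null samples 1 to 4. All miR-21 null samples were below all WT samples, and the spread was narrow in both groups. The mean fell from 183 ± 16.0 to 99.8 ± 4.61 CPM (SD, n = 4), a log2 fold change of -0.87 (SE 0.069, 95% interval -1.02 to -0.71, limma adjusted p = 2.73e-05).

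Tlr6, which pairs with Tlr2 for diacylated lipopeptides, lies at chr5:64952031-64960097 (minus strand). Its level was 31.3 to 37.2 CPM in WT and 32.8 to 38.8 CPM in miR-21 null samples. The means were 35.2 ± 2.69 and 35.2 ± 2.58 CPM, and the interval of the log2 fold change, -0.16 to 0.16, leaves room for changes of that size in either direction (adjusted p = 0.998). The sign of this near-zero value changed when WT replicate 4 or miR-21 null replicate 3 was left out. The Tlr1 to Tlr6 ratio within a sample was 4.88, 5.46, 5.26 and 5.18 in WT and 3.16, 2.67, 2.65 and 2.90 in miR-21 null TAMs. The ratio is of CPM values, not corrected for length, and the groups did not overlap. Reads of the shared stretch, if counted for the wrong gene, would enter both terms of this ratio, and their part in it was not tested.

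Tlr2, the common chain of both pairs, lies at chr3:83836272-83841767 (minus strand). It was at 90.0, 90.4, 86.9 and 76.6 CPM in WT and at 125, 86.7, 62.9 and 74.9 CPM in miR-21 null samples. The groups overlapped, and the SD was 7.47% of the mean in WT and 30.6% in miR-21 null samples. The log2 fold change was -0.021 (SE 0.17, adjusted p = 0.934), with an interval of -0.40 to 0.36 that is the widest of the 10 receptor genes. This value turned positive, to at most 0.12, under 6 of 16 alternatives.

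Tlr4 is the receptor of lipopolysaccharide, which it binds with Ly96, and lies at chr4:66827584-66930284 (plus strand). Its level was 104, 92.9, 92.6 and 88.0 CPM in WT and 137, 160.1, 154 and 146 CPM in miR-21 null samples. Every miR-21 null sample was above every WT sample. The mean rose from 94.4 ± 6.85 to 149.5 ± 9.87 CPM (SD, n = 4), a ratio of 1.58 and a log2 fold change of 0.66 (SE 0.067, 95% interval 0.51 to 0.81, limma adjusted p = 0.000114). The Tlr4 to Tlr1 ratio of CPM within a sample was 0.464 to 0.573 in WT and 1.33 to 1.71 in miR-21 null TAMs. Tlr4 thus had fewer CPM than Tlr1 in each WT sample and more in each miR-21 null sample, without correction for length. Per kb of exons, the mean of Tlr4 in miR-21 null TAMs was below that of Tlr1 (26.9 against 29.8 CPM per kb), and per kb of the longest transcript it was above (36.7 against 33 CPM per kb).

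Among endosomal receptors, Tlr12 differed most. It binds profilin of protozoa such as Toxoplasma and lies at chr4:128615443-128618619 (minus strand). Its level was 15.2, 22.1, 18.5 and 13.5 CPM in WT and 26, 36.6, 33 and 35 CPM in miR-21 null samples. The lowest miR-21 null sample was replicate 1, still above the highest WT sample. The mean rose from 17.3 ± 3.78 to 32.6 ± 4.63 CPM (SD, n = 4), a ratio of 1.88 and a log2 fold change of 0.89 (SE 0.148, 95% interval 0.56 to 1.22, limma adjusted p = 0.00159). This call depended on the filter on low values (adjusted p = 0.00942 without it) and on which samples were kept. The adjusted p passed 0.005 without WT replicate 1 (0.00502) and without miR-21 null replicate 2 (0.00614), 3 (0.00579) or 4 (0.00519), while the log2 fold change stayed between 0.78 and 1.01 over all 8 omissions.

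Tlr3, the receptor of double-stranded RNA, lies at chr8:45395665-45411080 (minus strand). It was at 17.3, 16.3, 17.4 and 19.3 CPM in WT and at 23.8, 24.1, 22.1 and 23.2 CPM in miR-21 null samples. The groups did not overlap, and the ratio of means, 1.33, was under the fold limit (log2 fold change 0.39, SE 0.067, 95% interval 0.24 to 0.54, adjusted p = 0.00185). Its exons overlap the antisense gene Gm45542 over 381 of 5207 bases, and Gm45542 had mean levels of 0.0229 CPM in WT samples and 0.0699 CPM in miR-21 null samples.

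Conventional dendritic cells also carry Tlr3 and Tlr12, and 2 of their 6 markers had higher means in miR-21 null samples. Clec9a was at 2.30 to 2.74 CPM in WT and 4.18, 5.84, 8.71 and 14.0 CPM in miR-21 null samples 1 to 4, without overlap. Xcr1 was at 1.73 to 7.05 CPM in WT and 3.32 to 20.7 CPM in miR-21 null samples, with overlap. The other 4 had lower means in miR-21 null samples, with ratios of 0.547 for Flt3, 0.579 for Zbtb46, 0.151 for Cd209a and 0.638 for Itgae. Summed over the 6 markers of that list, levels were 10.3 to 16.4 CPM in WT and 12.1 to 36.9 CPM in miR-21 null samples. Of the 6, 0 were called, where 7.12% of all tested genes were called, and 0 stayed under 3 reads in all samples. The sort on CD11b and F4/80 would remove many of these cells, and their part in the Tlr3 and Tlr12 differences was not tested.

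Tlr7, a receptor of single-stranded RNA, lies at chrX:167304929-167330558 (minus strand). Its level was 186, 174, 150.4 and 157 CPM in WT and 126, 138, 129 and 124 CPM in miR-21 null samples. The lowest WT sample stayed above the highest miR-21 null sample. The ratio of means was 0.776, which is within the fold limit, with a log2 fold change of -0.36 (SE 0.072, 95% interval -0.52 to -0.20, adjusted p = 0.00394). Tlr8, its neighbour 40599 bases away at chrX:167242696-167264329 and likewise a receptor of RNA, was at 131 to 161 CPM in WT and 149.6 to 166 CPM in miR-21 null samples. The groups overlapped, and the log2 fold change was 0.15 (95% interval 0.0031 to 0.30, adjusted p = 0.101). Tlr8 passed the wider limit only with rescaling by the median of ratios and without WT replicate 4. The Tlr7 to Tlr8 ratio of CPM within a sample was 1.31, 1.26, 1.152 and 0.974 in WT and 0.845, 0.874, 0.80 and 0.747 in miR-21 null TAMs, so that these groups did not overlap.

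Tlr9, the receptor of unmethylated CpG DNA, lies at chr9:106222598-106226883 (plus strand). It was at 108 to 141 CPM in WT and 99.5 to 112 CPM in miR-21 null samples, with overlap, and its log2 fold change of -0.18 did not pass the wider limit (95% interval -0.36 to 0.0016, adjusted p = 0.111). This value was -0.10 without WT replicate 4 and -0.066 with the median of ratios. B cells and plasmacytoid dendritic cells carry Tlr7 and Tlr9 as well, although the sort on CD11b and F4/80 would remove most of them. Of all tested genes 4.23% were called lower. Of the B cell markers reported here, Cd79b was called lower, at 8.89 to 15.6 CPM in WT samples and 3.03 to 5.67 CPM in miR-21 null samples, without overlap. Cd79a, Ms4a1 and Pax5 were each under 2 CPM in every sample and under the filter. Their groups overlapped, with ratios of means of 0.723, 1.06 and 0.779. The summed markers of plasmacytoid dendritic cells, 86.6 to 98.3 against 55.7 to 67.2 CPM, did not overlap either. That sum was nearly all Tcf4, which was called lower, and the defining marker Siglech was at 0.239 CPM or less in every sample. Cox6a2 and Klk1 had lower means without overlap (ratios 0.364 and 0.143). Ccr9 and Ly6d had higher means with overlap (ratios 1.37 and 1.24), and all of these were under the filter. The part of these cells in the Tlr7 and Tlr9 values was not tested.

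Tlr13, the receptor of bacterial ribosomal RNA, lies at chrX:106143204-106160493 (plus strand) and had the most reads of the family. It was at 391, 359.8, 370.4 and 358 CPM in WT and at 387, 409.7, 363 and 335 CPM in miR-21 null samples, and the groups overlapped. The means were 369.7 ± 14.9 and 373 ± 32.3 CPM, with an interval of the log2 fold change of -0.14 to 0.17 (adjusted p = 0.915). Its near-zero value turned negative under quantile normalization (-0.065) and under 4 of the 8 omissions of a sample.

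**Figure D2:**
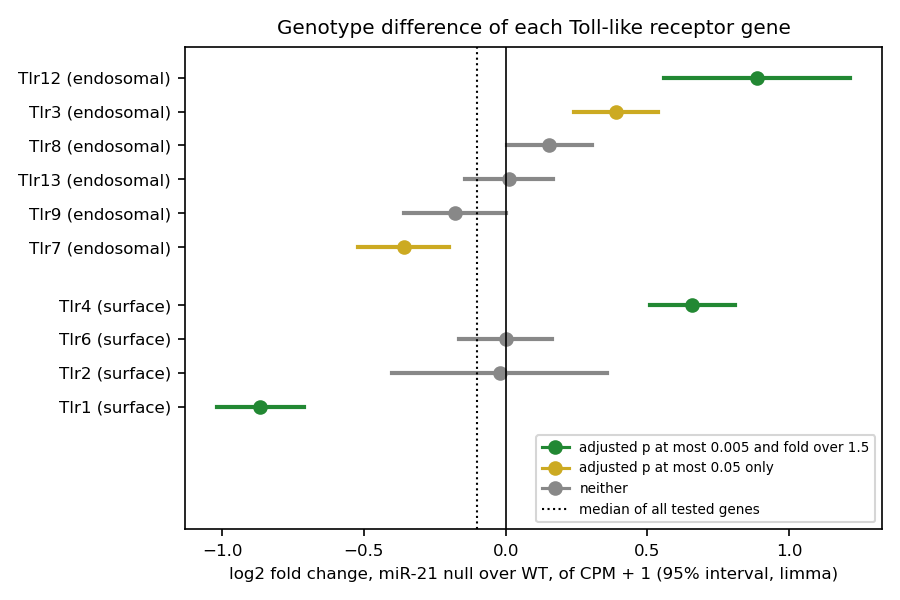
Log2 fold change (miR-21 null over WT, of CPM + 1) of each receptor gene with its 95% interval from limma, endosomal genes above and surface genes below; the dotted line is the median of all 13850 tested genes, -0.10. Green marks the 3 called genes, yellow the genes that passed an adjusted p of 0.05 only (Tlr3 and Tlr7) and grey the other 5, and each class holds values on both sides of 0.

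Surface and endosomal receptors were then compared as classes. Called genes were 1 higher and 1 lower of 4 at the surface and 1 higher and 0 lower of 6 in endosomes, where 7.12% of all genes were called. At the wider limit 1 higher and 1 lower of 4 and 2 higher and 1 lower of 6 passed, against 36.0% of all genes. Groups without overlap were 50% of either class, against 35.1% of all genes. The median log2 fold change was -0.010 for surface genes (range -0.87 to 0.66) and 0.083 for endosomal genes (range -0.36 to 0.89), beside -0.10 for all genes. With the median of ratios these medians were 0.10 and 0.19, and with quantile normalization 0.057 and 0.042, so that the order of the classes turned. The surface median was positive without WT replicate 1 or 2 or miR-21 null replicate 3 or 4, and -0.087 without miR-21 null replicate 1.

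The opposite changes inside a class left its sum close. Summed CPM of the surface genes was 413, 420.3, 403 and 358 in WT and 398, 375, 359 and 355 in miR-21 null samples, with means of 399 ± 28 and 372 ± 19.8. Endosomal genes summed to 835 ± 30.8 in WT and 824 ± 31.7 in miR-21 null samples. Surface genes made up 29.7% to 33.6% of the summed CPM of all 10 genes in WT and 30.2% to 32.6% in miR-21 null samples. The class sums and this share overlapped between genotypes, while the ratios of Tlr1 to Tlr6, Tlr7 to Tlr8 and Tlr4 to Tlr1 did not. The Tlr4 to Tlr2 ratio, 1.03 to 1.16 in WT and 1.10 to 2.45 in miR-21 null TAMs, overlapped through miR-21 null replicate 1.

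**Figure D3:**
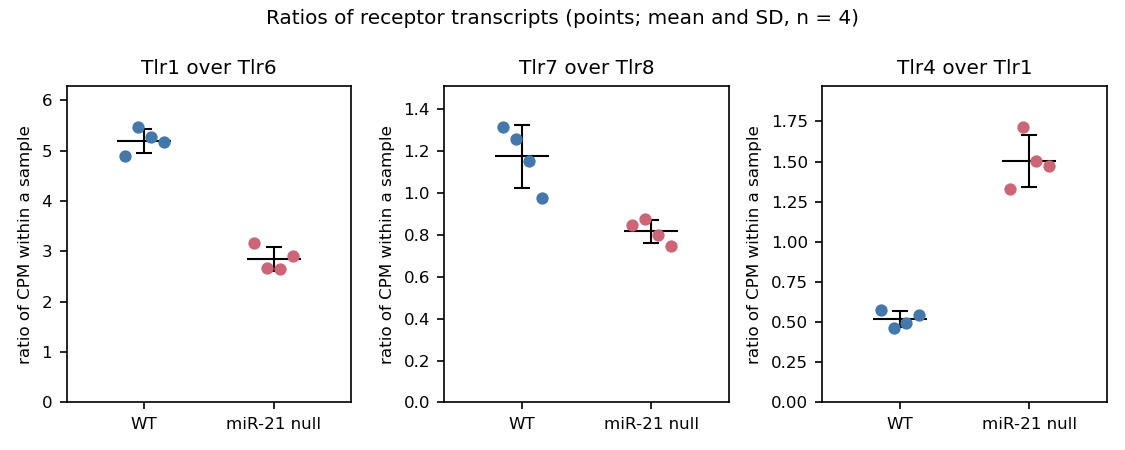
Ratios of CPM between receptor genes within each sample for Tlr1 over Tlr6, Tlr7 over Tlr8 and Tlr4 over Tlr1, with WT in blue and miR-21 null in red; points are samples, and lines and bars are the mean and SD of 4 samples on linear axes from 0. In each panel the 4 WT and 4 miR-21 null points do not overlap, with means of 5.20 and 2.84, 1.17 and 0.817, and 0.518 and 1.503.

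Levels of different genes were compared per kb of annotated exons (CPM per kb). Tlr13 was highest in WT at 85.9 ± 3.47 (SD, n = 4), followed by Tlr1 at 54.7 ± 4.78, Tlr7 at 40.8 ± 3.98, Tlr8 at 39.8 ± 3.57, Tlr9 at 34.7 ± 4.02, Tlr2 at 28.5 ± 2.13, Tlr4 at 17.0 ± 1.23, Tlr6 at 9.45 ± 0.722, Tlr12 at 5.46 ± 1.19 and Tlr3 at 3.38 ± 0.240. Neighbours in this order that overlapped were Tlr7 with Tlr8 and Tlr8 with Tlr9, and the other neighbours were apart.

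In miR-21 null TAMs Tlr13 was again highest at 86.8 ± 7.49 CPM per kb. Tlr8 came next at 44.2 ± 1.95, apart from the genes on either side. Tlr7 (31.7 ± 1.43), Tlr9 (30.6 ± 1.79), Tlr1 (29.8 ± 1.38), Tlr2 (29.0 ± 8.88) and Tlr4 (26.9 ± 1.78) formed a chain in which each overlapped the next. Tlr12 (10.3 ± 1.46) overlapped Tlr6 (9.45 ± 0.693), and Tlr3 was lowest at 4.48 ± 0.172. Tlr1 thus had rank 2 in WT and rank 5 in miR-21 null TAMs. The place of Tlr4 in miR-21 null TAMs depends on the length used, with rank 7 by exons and rank 3 by the longest transcript.

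**Figure D4:**
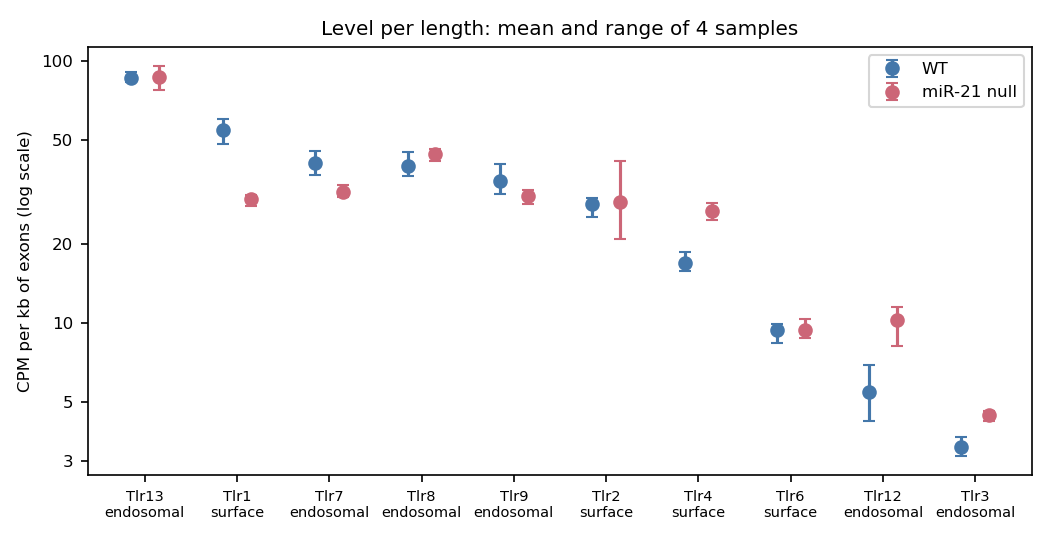
CPM per kb of annotated exons on a log axis for each receptor gene, ordered by the WT mean; points are means and bars the range of 4 samples, with WT in blue and miR-21 null in red. Tlr13 leads in both genotypes at 85.9 and 86.8, and the range of Tlr1 falls from 48.4 to 59.9 in WT to 27.9 to 31.0 in miR-21 null TAMs.

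Genes that act with the receptors were read from lists by role. These lists were chosen with earlier results of these data known. Their counts beside the share of all genes are therefore descriptions and do not test for enrichment. Of 82 tested genes in these lists, with Tlr5 and Tlr11 included, 15 were called higher and 1 lower (19.5% called, against 7.12% of all genes), and 26 were higher and 17 lower at the wider limit, which 36.0% of all genes passed. Of all genes, 2.89% were called higher and 4.23% lower. Among 16 ligand-binding partners, chaperones and proteases, 3 were called higher and 1 lower, with a median log2 fold change of 0.20, and 6 were higher and 3 lower at the wider limit. Cd36, a scavenger receptor that assists pairs of Tlr2, rose from 21.9 ± 12.0 to 117 ± 22.8 CPM (log2 fold change 2.52, adjusted p = 0.000540). Cd180, a Toll-like homolog that dampens Tlr4 signals in macrophages, rose from 116 ± 10.62 to 219.6 ± 10.1 CPM (0.92, adjusted p = 1.80e-05).

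The 2 other called genes of that list belong to the endosome and lysosome. Ctss, a protease that cleaves endosomal receptors, rose with a log2 fold change of 0.65 (adjusted p = 0.000192). Slc15a4, an endolysosomal transporter needed for signals of Tlr7 and Tlr9, fell from 52.1 ± 6.02 to 31.2 ± 2.69 CPM (-0.72, adjusted p = 0.000359). Unc93b1, Cnpy3 and Ly96 were named for their roles after their values were seen. Unc93b1, the chaperone that brings receptors to endosomes, had a log2 fold change of -0.094 (adjusted p = 0.334). Cnpy3, a chaperone of Toll-like receptors, had -0.44 (adjusted p = 0.000261, under the fold limit), and Ly96, the partner of Tlr4, had 0.33 (adjusted p = 0.0129).

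Of 25 adaptors, kinases and ubiquitin ligases, 1 was called (7.12% of all genes were), with a median of 0.016. Peli1, a ubiquitin ligase of the Ticam1 branch, rose from 51.9 ± 2.74 to 92.1 ± 1.09 CPM (0.82, adjusted p = 6.83e-06). The lowest value was that of Tab2, a scaffold of the Tak1 kinase, at -0.49 (adjusted p = 0.000539, under the fold limit). At the wider limit 5 of these genes were higher and 7 lower, against 36.0% of all genes in either direction. Myd88, the adaptor of nearly all receptors, had 169 ± 8.17 CPM in WT samples and 171 ± 7.56 CPM in miR-21 null samples (0.019, adjusted p = 0.806), and was likewise named for its role after its values were seen.

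Of 15 tested negative regulators, 2 were called higher and 0 lower, with a median of 0.034, and 2 were higher and 4 lower at the wider limit. Of all genes, 2.89% were called higher, 4.23% lower and 36.0% passed the wider limit in either direction. Socs1, which restrains cytokine and Toll-like receptor signals, rose from 5.18 ± 1.09 to 26.2 ± 5.36 CPM (2.14, adjusted p = 1.66e-05). Trafd1, an inhibitor of Traf proteins, rose with a log2 fold change of 0.67 (adjusted p = 7.30e-05). The lowest value was that of Sigirr, a decoy-like member of the receptor superfamily, at -0.77 (adjusted p = 0.00706). Sarm1 was under the filter.

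Output genes of the pathway had 6 of 12 tested called higher (2.89% of all genes) and 0 lower, with a median of 0.54, and 7 were higher and 0 lower at the wider limit (36.0% of all genes in either direction). The largest were Cxcl10, a chemokine for T cells, from 56.1 ± 13.0 to 283 ± 53.2 CPM (2.33, adjusted p = 1.51e-05), and Nos2, the inducible nitric oxide synthase, from 33.3 ± 7.75 to 144 ± 20.7 CPM (2.10, adjusted p = 2.99e-05). Ccl5 (1.51, adjusted p = 0.00207), Tnf (0.97, adjusted p = 0.00115), Ccl4 (0.91, adjusted p = 0.000663) and Ptgs2 (0.61, adjusted p = 0.00461) were the other 4. The neutrophil chemokine Cxcl1 was lowest at -0.59 and did not pass either limit (adjusted p = 0.0828). Il6, Il12b and Ifnb1 were under the filter. Interferon and other cytokines are also known to induce several of these genes.

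Of 12 other sensors of nucleic acids and cell walls, 3 were called higher (2.89% of all genes) and 0 lower, with a median of 0.33. Clec7a, the receptor of β-glucans known as Dectin-1, rose from 117 ± 11.7 to 337 ± 28.4 CPM (1.53, adjusted p = 3.02e-06). Zbp1, a sensor of Z-form nucleic acids, rose with 1.27 (adjusted p = 0.000114), and Dhx58, a helicase of the RIG-I family, with 0.68 (adjusted p = 0.000243). Mavs, the mitochondrial adaptor of RIG-I-like helicases, was lowest at -0.56 (adjusted p = 0.000701, under the fold limit). At the wider limit 6 of these sensors were higher and 2 lower (36.0% of all genes in either direction).

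**Figure D5:**
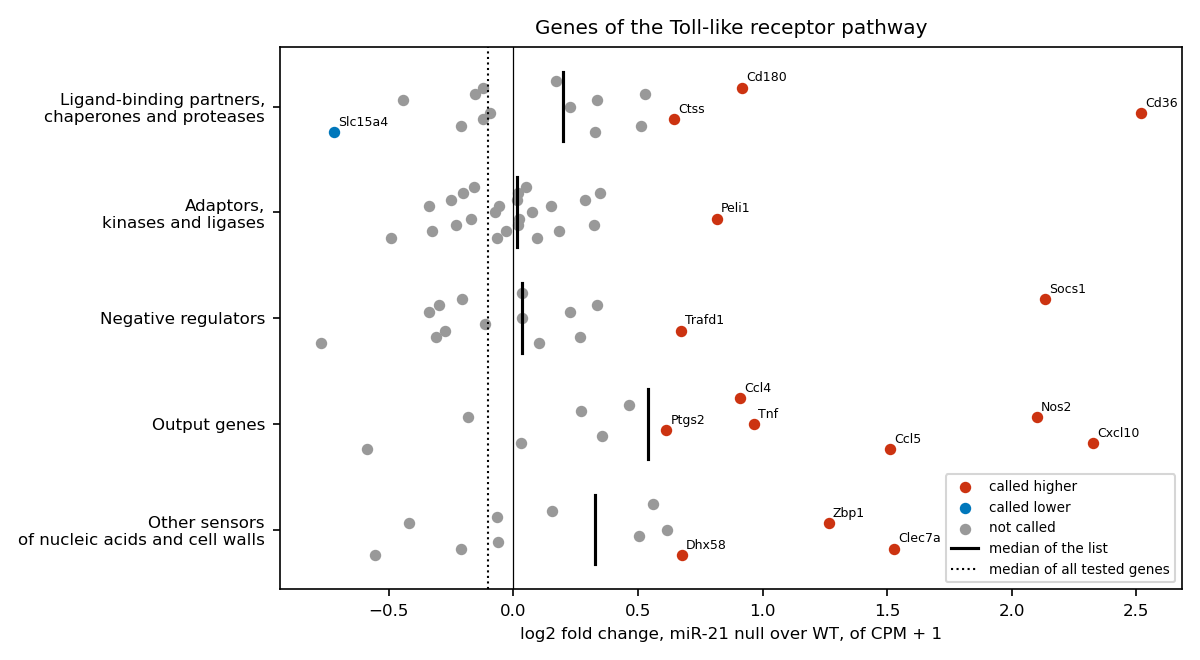
Log2 fold change (miR-21 null over WT, of CPM + 1) of each tested gene of the 5 pathway lists, 1 point a gene spread vertically for legibility; red genes were called higher, the blue gene lower, black bars are list medians, and the dotted line is the median of all tested genes, -0.10. Called genes lie to the right in all 5 lists, with Slc15a4 (-0.72) the only one to the left.

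The other mouse receptors of the family are Tlr5, for flagellin, and Tlr11, for profilin. Tlr5 had 36.5 ± 7.84 CPM in WT samples and 24 ± 5.05 CPM in miR-21 null samples (-0.58, adjusted p = 0.0317), with overlap, and was called only without WT replicate 4 (-0.75, adjusted p = 0.00345). Tlr11 was near the filter at 1.01 ± 0.265 and 2.27 ± 1.16 CPM (0.64, adjusted p = 0.0507).

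Other cell types of the tumor were followed by their markers, although the sort would remove T and NK cells, fibroblasts, endothelial cells and tumor cells, which lack CD45 or F4/80. Summed levels overlapped between genotypes for monocytes (448 to 840 CPM in WT and 349 to 626 CPM in miR-21 null samples), T and NK cells (6.53 to 8.68 and 4.00 to 19.7 CPM), neutrophils (523 to 921 and 390.0 to 544 CPM), fibroblasts and endothelial cells (183 to 353 and 198 to 286 CPM) and epithelial tumor cells (15.6 to 21.99 and 11.5 to 15.8 CPM). Monocytes and neutrophils carry Tlr1, Tlr2 and Tlr4 too, although the sort on MHCII and F4/80 would remove most neutrophils. Of the 6 neutrophil markers, Mmp8 was called lower, of the 5 fibroblast and endothelial markers Col1a1 and Pdgfra were called lower (ratios of means 0.199 and 0.220), and of the 4 monocyte markers 0 were called, where 4.23% of all genes were called lower. Of the other neutrophil markers, S100a8, S100a9, Retnlg and Cxcr2 had lower means too, with ratios of 0.686, 0.642, 0.537 and 0.769. Only Ly6g had a higher mean, with a ratio of 1.36, and none of these was called. In the fibroblast and endothelial list Pecam1 had a ratio of 1.13 and Cdh5 of 0.844, and neither was called. Col1a2 had a ratio of 0.176 and was not called, and most of the overlapping sum of that list was Pecam1. The T and NK cell markers Nkg7, Cd3g, Cd3e and Cd3d had ratios of 2.78, 1.51, 1.46 and 1.05. Ncr1 and Klrb1c, under the filter, had 0.362 and 0.797. These markers overlapped between genotypes, and none was called. Krt8 was at 9.41 to 12.8 CPM in WT and 6.62 to 9.13 CPM in miR-21 null samples. Its groups did not overlap (35.1% of all genes), and it was not called. Epcam and Krt18 overlapped, with ratios of 0.742 and 0.816. The part of these cells in the Tlr1 and Tlr4 differences was not tested.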

How the data were processed

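The authors aligned reads with STAR to mm10 and used Partek 7.0, per the labels' processing notes. They deposited CPM values for 53247 genes, each raised by 0.0001. The counting rule, the strand setting and the source of the gene models are not given in the sources used here, and 37 mitochondrial genes were listed at 0.0001 in all samples. The coordinates fit GRCm38: 97.1% of genes with a symbol in GENCODE vM21 had the same start. Exon lengths, 3′ UTRs and shared windows came from that annotation. Low values up to 20 reads were whole multiples of 1 read (tolerance 0.05) in 73.2% to 74.6%, so whole reads were not recovered and count tests were not run.

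From the deposited values, log2(CPM + 1) was fitted with limma 3.58.1 in R 4.3.3 (eBayes with trend, genotype as the only term, all 8 samples) over genes whose mean reached 1 per 1e+06 of the column totals (788099 to 807758 CPM). P-values were adjusted by Benjamini-Hochberg over all 13850 genes. The limits of 0.005 and 1.5 follow the study's methods. The labels number the samples as biological replicates without saying whether each is 1 mouse, so p-values measure the spread between these samples. Precision is limited by 4 samples per genotype. The fit was tested on simulated data: of 200 changed genes among 13850, 50 at each fold, 78% were called at a fold of 1.6, 92% at 1.9, 98% at 2.5 and 100% at 4, and 0 unchanged genes were called. The changed genes were drawn only from genes well above the filter, and normal noise was drawn independently for each value. The recovery therefore does not cover genes at low levels.

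The receptor genes, role lists and marker lists were chosen with earlier results of these data known. Named genes are the 10 receptors, Mir21a, in each role list the called genes and the highest and lowest, the 5 genes most like the most changed receptor, and cell markers. Unc93b1, Cnpy3, Ly96 and Myd88 were added outside this rule, for their roles. A marker of the B cell list, and the sum that holds it, are not reported here. Alternatives were pseudocounts of 0.1 and 10, no filter or a filter of 5, quantile normalization, the median of ratios, eBayes without trend, the replicate number as a block, each sample left out, and other limits. Identity between the receptor proteins was planned and not computed. Figures were drawn with matplotlib 3.10.9.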

Additional observations from a re-analysis of the deposited data

Results flagged for a closer look

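In 1 of 28 groups of 4 samples checked, a sample stood far from the others of its genotype. Tlr5 was at 24.8 CPM in WT replicate 4, against 39.4 to 41.3 CPM in the other 3 WT samples. Chance gives such a gap in about 1 in 20 groups.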

How the results depend on the processing

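Tlr1 and Tlr4 were called under all 16 alternatives (highest adjusted p 0.000381 and 0.00105), and the same 5 receptor genes passed an adjusted p of 0.05 in each. Without the filter Tlr12 was not called (adjusted p = 0.00942). Called receptor genes were 3, 2 to 3 with 1 sample left out, and 5 at an adjusted p of 0.05 without a fold limit, where called genes of the role lists went from 16 to 43. Genes called were 452 with a pseudocount of 10, 534 without the filter, 4982 at the wider limit, and 685 to 1001 with 1 sample left out. Genes called higher were 251 with a pseudocount of 10, 1314 at the wider limit, and 314 to 387 with 1 sample left out. Genes called lower were 201 with a pseudocount of 10, 254 without the filter, 337 with quantile normalization, 350 with the median of ratios, 3668 at the wider limit, 901 at 0.05 with the fold limit, and 371 (without WT replicate 2) to 614 with 1 sample left out. The median of ratios moved the median of surface receptors to 0.10 and of endosomal receptors to 0.19, quantile normalization gave 0.057 and 0.042, and with 1 sample left out they were -0.087 to 0.036 and 0.061 to 0.10. Seed sites went from 0 genes to 1 with 7 bases and 2 with 6 bases. Values near 0 changed sign: Tlr2 was 0.029 with quantile normalization, 0.090 with the median of ratios and -0.21 to 0.12 with 1 sample left out, Tlr6 was -0.054 to 0.033 with 1 sample left out, and Tlr13 was -0.065 with quantile normalization and -0.035 to 0.062 with 1 sample left out. The cause was not tested.

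The titles of the miR-21 null samples are numbered differently from the replicate numbers used here. Those replicate numbers follow the order of the samples within each genotype. These numbers did not pair the samples (same-numbered samples had correlations of deviations from the group means of 0.083, -0.11, -0.14 and 0.22, and not every sample correlated best with its own number). With the number as a replicate block 922 genes and the same 3 receptor genes were called, and 17 genes of the role lists. The depth limits genes under a few CPM, such as Tlr11, whose log2 fold change was 0.15 with a pseudocount of 10 and 0.99 with 0.1. Tests on counts were not run because whole reads were not recovered.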

Other observations

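The 5 tested genes whose log2 values followed Tlr12 most closely over the 8 samples were Slc33a1 (Pearson's r = 0.975), Nkiras1 (0.974), Sdc3 (0.970), Lin7c (0.970) and Nol10 (0.968). These samples share the genotype split and the libraries, so that the values are descriptions. All 5 had higher means in miR-21 null TAMs, with log2 fold changes of 0.19 for Lin7c to 0.40 for Sdc3. Sdc3, a heparan sulfate proteoglycan, was the most abundant at 1134 ± 71.7 CPM in WT samples and 1493 ± 102 CPM in miR-21 null samples. Nkiras1, a Ras-like protein, was at 4.47 ± 0.509 and 5.63 ± 0.429 CPM.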
